A study of Drosophila melanogaster with 8 samples.

Results

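L57 cells, a cultured Drosophila melanogaster line, were exposed to 1 µM juvenile hormone III (JH III) for 12 h and compared with cells given the solvent DMSO. The comparison uses 4 of the 8 arrays of the series: 2 arrays labelled JH III 12 h and 2 labelled DMSO, chosen by these labels. The other 4 arrays are 2 of JH III at 3 h and 2 at 6 h. All cells were grown in the same serum-containing medium, and total RNA was measured on Affymetrix Drosophila arrays. DMSO stands for 0 h in the series' design, which means that 12 h with the hormone and 12 h more in culture cannot be told apart. For 1 of the DMSO arrays the source label adds the word embryos, while the growth protocol is that of L57 cells on all 8. Nothing in the labels says that the 2 arrays of a group came from separate cultures, so the spread between them may be technical. P-values rest on this spread within groups, pooled over all 8 arrays of the series.

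JH III is a sesquiterpenoid made by the corpora allata of insects. It binds the bHLH-PAS proteins Met and gce, which with the coactivator tai switch on target genes such as Kr-h1, a zinc-finger gene that holds back metamorphosis. In adult insects the same hormone promotes reproduction, in part by raising protein synthesis in its target tissues.

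Each value is a MAS5 signal, the authors' linear brightness of a probe set, and changes are given as log2(signal + 25), JH III 12 h minus DMSO. Fold changes are on that scale, which understates the change of dim probe sets. Across the probe sets tested and readable on all arrays, the 2 JH III 12 h arrays correlated at 0.970 and the 2 DMSO arrays at 0.978, while a JH III 12 h array and a DMSO array correlated at 0.967 to 0.969. The 9 added hybridization controls, which hold no RNA of the cells, averaged 11.09 and 10.77 on the log2 scale on the JH III 12 h arrays, against 10.40 and 10.39 on the DMSO arrays. The Gapdh controls averaged 11.25 and 11.22 on the JH III 12 h arrays, against 11.83 and 11.84 on the DMSO arrays. Signal from the 3' end over that from the 5' end, on the log2 scale, was -0.03 and 0.20 for the actin control on the JH III 12 h arrays and -0.15 and -0.08 on the DMSO arrays. For the control probe sets of eIF-4a the same ratio was 0.76 and 0.95 on the JH III 12 h arrays, against 0.57 and 0.80 on the DMSO arrays. For Gapdh it was 1.08 and 1.22 on the JH III 12 h arrays and 1.17 and 1.11 on the DMSO arrays. The groups thus overlapped for eIF-4a and Gapdh, but not for actin. The part of labelling or RNA integrity in the changes below was not tested.

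By limma's moderated test with Benjamini-Hochberg adjustment, 496 of 8380 probe sets (5.92%) differed between JH III 12 h and DMSO at an adjusted p under 0.05. Of these 280 were higher (3.34%) and 216 lower (2.58%). Centring each array on its median shifted the median of all probe sets by -0.13 and turned the split to 181 higher and 708 lower, so every direction below is relative to the authors' scale. Most changes were small: the median was 0.57 among the higher and -0.45 among the lower. At least 2-fold changes numbered 25 higher and 11 lower, together 0.43% of probe sets, and 187 probe sets (2.23%) changed at least 1.5-fold. In all 496, both JH III 12 h arrays lay beyond both DMSO arrays, which was also true of 51.7% of all probe sets tested. Without DMSO replicate 1 or 2 the count was 82 and 84, and without JH III 12 h replicate 1 or 2 it was 349 and 301. Calls that passed in each of these 4 fits numbered 51 (0.609% of probe sets), 45 higher and 6 lower, and covered 45 genes with 1 symbol.

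**Figure D1:**
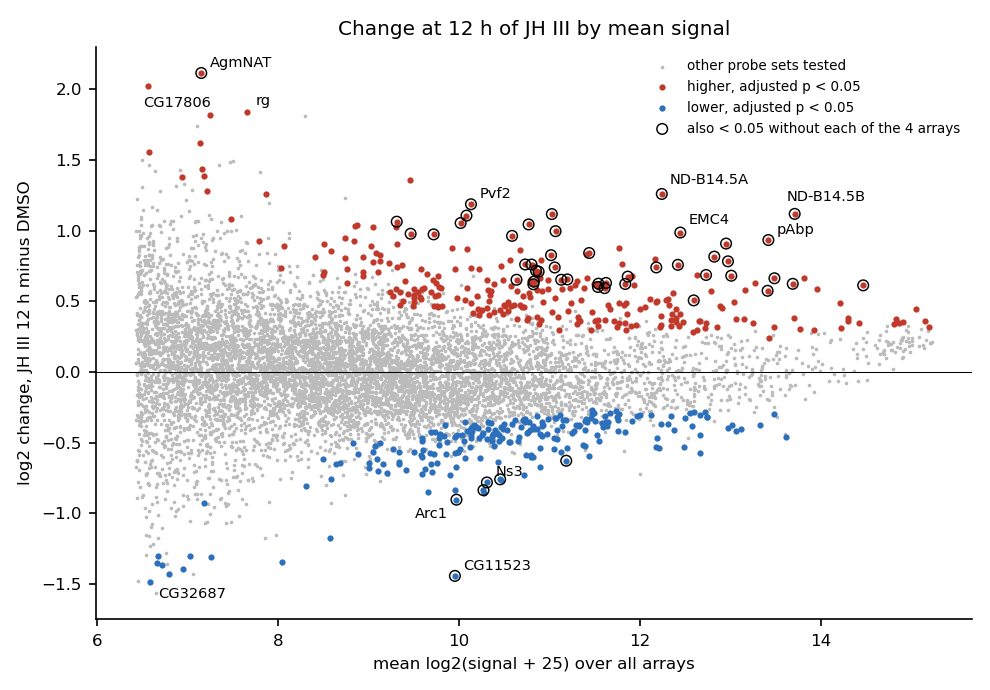
Log2 change of each probe set (JH III 12 h minus DMSO, y axis) against its mean log2(signal + 25) over all arrays (x axis). Red and blue points are the 280 probe sets higher and the 216 lower at an adjusted p under 0.05, and circles mark the 51 that also passed without each of the 4 arrays. The largest changes lie among dim probe sets, while most circled ones have mid to high signal.

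The largest rises that passed in every one of these fits came from genes of varied function, among them an acetyltransferase gene, 2 genes of respiratory complex I and a growth factor gene. AgmNAT, an arylalkylamine N-acetyltransferase family gene, had a signal of 614 and 444 on the JH III 12 h arrays, against 119 and 85.8 on the DMSO arrays. It rose 4.33-fold (2.11 ± 0.27 SE, n = 2 arrays each, limma adjusted p = 0.00382). The values of its 2 JH III 12 h arrays were the most unequal of this group of genes, yet the lower one was over the higher DMSO array by a wide margin. ND-B14.5A, an accessory subunit of complex I, the NADH dehydrogenase of the respiratory chain, had a signal of 10694 and 10748 on the JH III 12 h arrays and 4489 and 4439 on the DMSO arrays. It rose by 1.26 ± 0.07 and had the smallest adjusted p of the comparison (0.000191). ND-B14.5B, another accessory subunit of the same complex, gave 30751 and 27055 on the JH III 12 h arrays, against 13102 and 13443 on the DMSO arrays. It rose by 1.12 ± 0.09 (adjusted p = 0.00108), and in neither gene did the groups come near each other.

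Genes of signalling and of membranes were also in this set. Pvf2, which encodes a PDGF- and VEGF-related ligand of the receptor Pvr that acts on blood cells, had a signal of 1477 and 1423 on the JH III 12 h arrays, against 624 and 622 on the DMSO arrays. It rose 2.28-fold (1.19 ± 0.11, limma adjusted p = 0.00118). PMP34, a carrier of the peroxisomal membrane, gave 1902 and 2119 on the JH III 12 h arrays and 913 and 924 on the DMSO arrays, a rise of 1.11 ± 0.13. EMC4, part of the complex that inserts proteins into the membrane of the endoplasmic reticulum, gave 10863 and 10742 on the JH III 12 h arrays and 5433 and 5447 on the DMSO arrays. It rose by 0.99 ± 0.09 (adjusted p = 0.00108), and replicates of either group differed by far less than the groups did. MSBP, a membrane steroid binding protein gene, had 2567 and 2452 on the JH III 12 h arrays against 1197 and 1296 on the DMSO arrays. Its probe set rose by 1.00 ± 0.09, and a second probe set of MSBP gave 0.57 (adjusted p = 0.0736). For strat, a gene of Rab8-dependent traffic, the signal was 1270 and 1161 on the JH III 12 h arrays, against 622 and 591 on the DMSO arrays (0.97 ± 0.09).

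Regulators of chromatin, of messenger RNA and of protein modification completed the list. The gene sxc encodes the O-GlcNAc transferase, which adds single sugars to nuclear and cytosolic proteins and is needed for Polycomb silencing. Its signal was 1038 and 1274 on the JH III 12 h arrays, against 537 and 546 on the DMSO arrays (1.05 ± 0.11, limma adjusted p = 0.00285). The gene e(y)2, shared by the SAGA coactivator and the TREX-2 mRNA export complex, gave 2321 and 2692 on the JH III 12 h arrays and 1275 and 1266 on the DMSO arrays (0.96 ± 0.09). Both probe sets of pAbp, the poly(A)-binding protein that couples mRNA tails to translation, rose. The brighter probe set had 11434 and 12396 on the JH III 12 h arrays, against 6203 and 6239 on the DMSO arrays (0.93 ± 0.08), and the other rose by 0.74 ± 0.06. The non-coding RNA gene lncRNA:CR42862 had 485 and 526 on the JH III 12 h arrays and 229 and 229 on the DMSO arrays (1.06 ± 0.12), and its second probe set gave 0.60 (adjusted p = 0.0557). CG6610 rose by 1.04 ± 0.09 with 3050 and 3154 on the JH III 12 h arrays and 1521 and 1462 on the DMSO arrays. One probe set of teq, a secreted serine protease gene, rose by 0.91 ± 0.10 while the other gave 0.33 (adjusted p = 0.58).

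**Figure D2:**
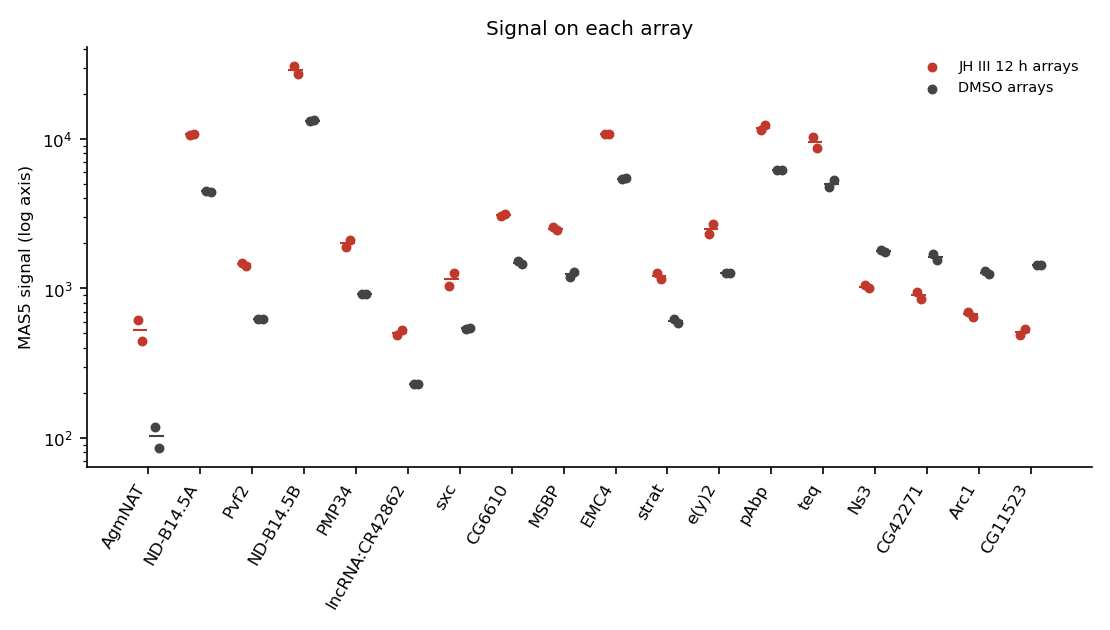
MAS5 signal (log axis) on each JH III 12 h array (red, left) and each DMSO array (grey, right) for the 15 named genes whose call held without each of the 4 arrays, plus Arc1, CG42271 and Ns3, which held too. Bars mark group means. In all of them the 2 groups are apart, by about 2-fold in most.

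Other large rises came from dimmer probe sets and passed with all arrays but not without 1 of the 4. CG17806 had 201 and 193 on the JH III 12 h arrays, against 27.2 and 32.3 on the DMSO arrays, and rose 4.06-fold (2.02 ± 0.31, limma adjusted p = 0.0101; up to 0.0721 with 1 array left out). The gene rg, which encodes the A-kinase anchor protein rugose, gave 312 and 363 on the JH III 12 h arrays, against 117 and 46.8 on the DMSO arrays (1.84 ± 0.31). The DMSO arrays themselves differed by more than 2-fold in rg, as they did in GramD1B, mthl4 and Atg10. CG34227 rose by 1.82 ± 0.31, CG10841 by 1.44 ± 0.33, CG17549 by 1.38 ± 0.34 and hng2 by 1.36 ± 0.21. One probe set of GramD1B rose by 1.62 ± 0.34, while another gave 0.40 (adjusted p = 0.503). Pkc98E, a protein kinase C gene, rose by 1.28 ± 0.31 with 1 probe set and gave 0.42 with the other (adjusted p = 0.306). The methuselah-like receptor gene mthl4 rose by 1.38 ± 0.33 and Atg10, an enzyme of autophagosome formation, by 1.26 ± 0.30.

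Among the falls, CG11523 led those that held in every fit. Its signal was 490 and 532 on the JH III 12 h arrays, against 1434 and 1425 on the DMSO arrays, and it fell by 1.44 ± 0.12 on the log2 scale (limma adjusted p = 0.00116). Arc1, a Gag-like gene whose protein forms capsids that carry RNA between cells, gave 699 and 646 on the JH III 12 h arrays, against 1307 and 1250 on the DMSO arrays, and fell by 0.90 ± 0.09. In both genes every JH III 12 h value lay well under both DMSO values. Ns3 encodes a GTPase of the nucleostemin family that acts in ribosome assembly, and 1 of its probe sets gave 1056 and 1002 on the JH III 12 h arrays and 1810 and 1762 on the DMSO arrays. This probe set fell by 0.78 ± 0.08, while its second, dim probe set was at -0.40 (adjusted p = 0.707). CG42271 fell by 0.84 ± 0.09 with 1 probe set and gave 0.04 with another. The other 2 of the 6 falls that held, CG9114 and the zinc-finger gene stc, fell by 0.76 ± 0.08 and fell by 0.63 ± 0.07, and were picked out after their values were seen.

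Most of the largest falls by size were in dim probe sets and passed with all 4 arrays but not in every fit that left out 1. CG32687 gave 30.2 and 35.8 on the JH III 12 h arrays, against 142 and 132 on the DMSO arrays, and fell by 1.48 ± 0.29 (limma adjusted p = 0.0219), while its second probe set gave -0.89 (adjusted p = 0.301). The spätzle-family ligand gene spz6 gave 37.7 and 28.0 on the JH III 12 h arrays, against 129 and 131 on the DMSO arrays, and fell by 1.43 ± 0.28. Nplp3, a precursor of neuropeptide-like products, fell by 1.39 ± 0.27. Gnpat, the first enzyme of ether lipid synthesis in peroxisomes, gave 24.5 and 16.5 on the JH III 12 h arrays, against 74.4 and 112 on the DMSO arrays, and fell by 1.36 ± 0.32. Atxn7, which anchors the deubiquitinase module of SAGA, fell by 1.17 ± 0.24, with 125 and 228 on the JH III 12 h arrays and 377 and 454 on the DMSO arrays. Its partner in that module, e(y)2, was among the rises. Phae1, a serine protease gene, fell by 1.35 ± 0.29, QC, a glutaminyl cyclase gene, fell by 1.30 ± 0.30, and CG6928 fell by 1.30 ± 0.31. For raskol, a Ras GTPase-activating protein gene, 1 probe set fell by 1.35 ± 0.30 and another gave -0.07. For smal 1 probe set fell by 1.31 ± 0.25 and the others gave 0.03 and 0.02, and CG32428 fell by 0.85 ± 0.16 with 1 probe set and gave -0.13 with another. CG9799 fell by 0.83 ± 0.10.

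Genes of the protein synthesis machinery moved in different directions by part. Each gene below enters with its brightest probe set, and over all 6865 genes tested 3.28% were higher and 2.77% lower, with a median of -0.01. Of 33 cytosolic ribosomal protein genes tested, 6 rose and 0 fell by limma, with a median of 0.20. The members with the smallest p were RpL23, with 37189 and 32589 on the JH III 12 h arrays and 21862 and 23684 on the DMSO arrays (0.61 ± 0.08, adjusted p = 0.00382), RpLP2, the acidic stalk protein (0.45 ± 0.08), and RpL10Ab (0.34 ± 0.08). These are among the highest signals on the arrays, and quantile normalization took the list's median to 0.01, with 1 member higher and 2 lower. The call of RpL23 alone held without each of the 4 arrays.

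The translation factors gave the opposite picture for 1 complex. Of 39 genes tested 3 rose and 8 fell, and 7 of the 8 encode subunits of eIF3, the scaffold that brings messenger RNA to the small ribosomal subunit. Picked out after these values were seen, the eIF3 genes and their paralogs number 14, of which 7 fell and 0 rose by limma, with a median of -0.27, against 2.77% lower over all genes. Largest were eIF3l, with 5029 and 5599 on the JH III 12 h arrays and 7864 and 7982 on the DMSO arrays (log2 change -0.58 ± 0.09, adjusted p = 0.00756), and eIF3g1, with 5157 and 4817 on the JH III 12 h arrays and 7420 and 6991 on the DMSO arrays (-0.53 ± 0.07, adjusted p = 0.00494). The other members that passed were eIF3a (-0.42), eIF3k (-0.38), eIF3m (-0.38), eIF3i (-0.32) and eIF3c (-0.31). The eIF3f paralogs lay on the other side, with 0.23 for eIF3f1 (adjusted p = 0.126) and 1.04 ± 0.34 for the dim eIF3f2 (adjusted p = 0.112). The count of falls was 0 without DMSO replicate 1, 1 without DMSO replicate 2, 6 and 4 without JH III 12 h replicates 1 and 2, and 8 with quantile normalization. The remaining fall was eIF2Bgamma (-0.65). Besides pAbp, the factors that rose were eIF4G1, the scaffold that binds pAbp (0.65 ± 0.08), and the termination factor gene eRF1 (0.35).

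Ribosome assembly and tRNA charging genes lay mostly below DMSO. Of 46 ribosome biogenesis and nucleolar genes 8 fell and 2 rose by limma, with a median of -0.19. Ns3, described above, was the only fall of this list whose call held without each of the 4 arrays. Rrp4, an RNA-binding subunit of the exosome that trims ribosomal RNA, went the other way, with 3495 and 3752 on the JH III 12 h arrays against 2329 and 2261 on the DMSO arrays (0.65 ± 0.07). Of 28 aminoacyl-tRNA synthetase genes 2 fell and 1 rose, with a median of -0.23. GlnRS fell by 0.54 ± 0.08, 1 probe set of TyrRS fell by 0.52 ± 0.10 with -0.07 for its second one, and TrpRS rose by 0.37 ± 0.08. The share called among the synthetases, 10.7%, compares with 6.05% over all genes, so the list is better described by its median than by its calls.

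Of 67 mitochondrial ribosomal protein genes 6 rose and 4 fell by limma, where 3.28% of all genes tested were higher and 2.77% lower. The list's median of 0.03 moved to -0.10 once arrays were centred. Rises were chiefly in the large subunit, where 5 of 43 genes rose and 0 fell: mRpL46 gave 2635 and 2635 on the JH III 12 h arrays, against 1697 and 1638 on the DMSO arrays (0.65 ± 0.08, adjusted p = 0.00285), mRpL36 rose by 0.62 ± 0.07, and 1 probe set of mRpL11 rose by 0.59 ± 0.09 while the other gave 0.04. In the small subunit 1 of 23 rose and 4 fell. The split by subunit was noticed in these values and the difference between subunits was not tested.

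**Figure D3:**
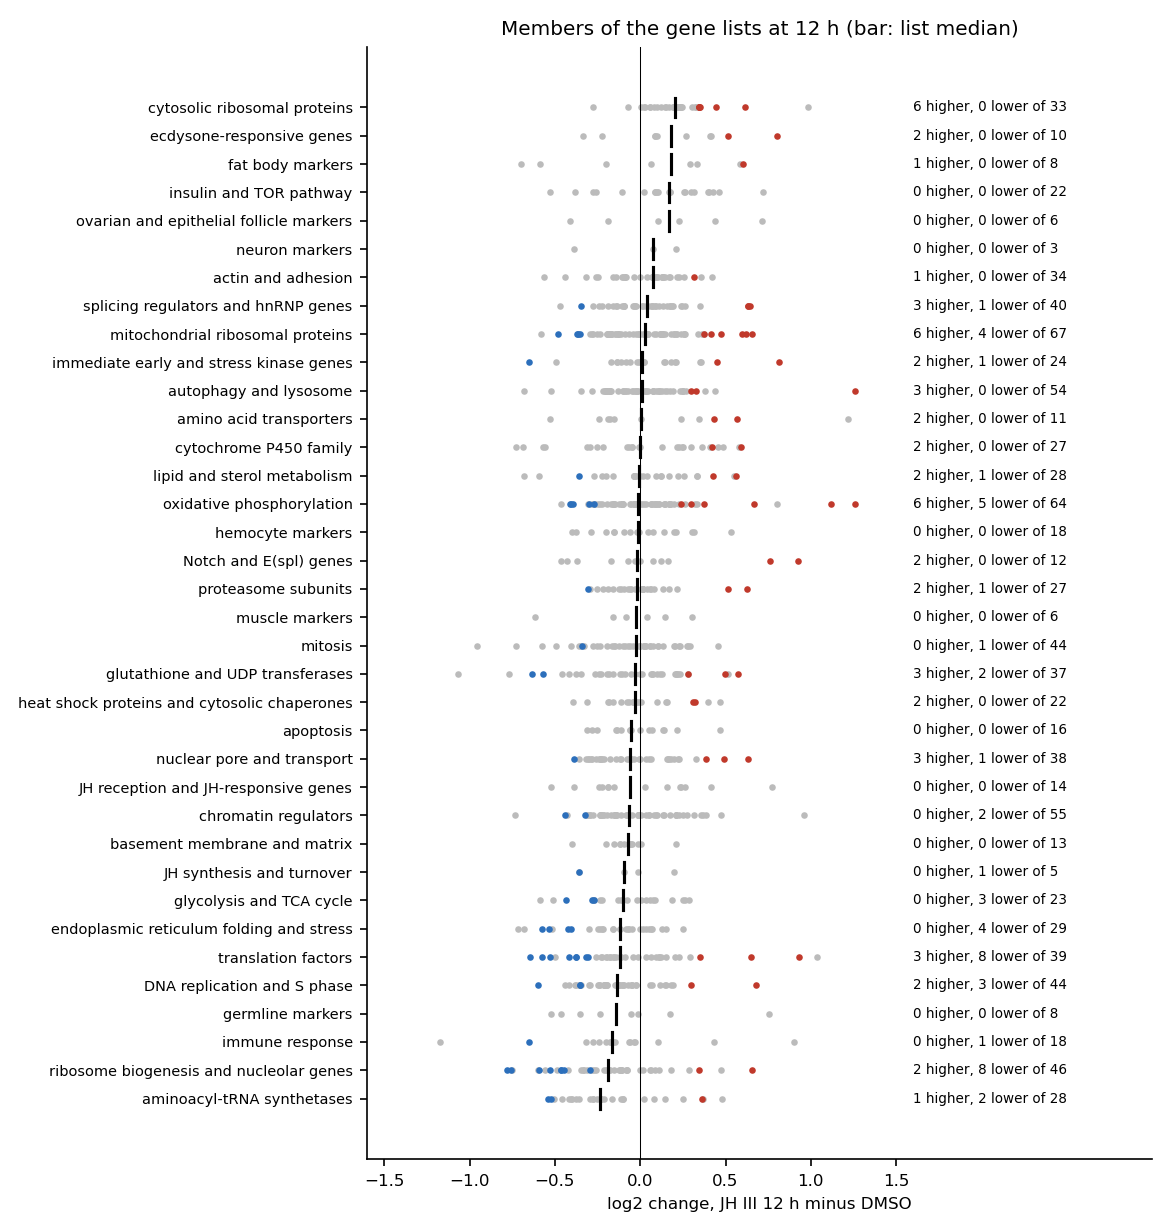
Log2 change of each tested gene (JH III 12 h minus DMSO, x axis) in the gene lists, 1 row per list, ordered by median. Red and blue points are genes higher and lower at an adjusted p under 0.05, grey points are other genes and black bars are medians, which run from -0.23 for aminoacyl-tRNA synthetases to 0.20 for cytosolic ribosomal proteins.

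Of 30 complex I genes and paralogs tested, 3 rose and 5 fell by limma, with a median of -0.11. Over all genes tested 3.28% were higher and 2.77% lower. Rises were in ND-B14.5A, ND-B14.5B and ND-B12, which had 5765 and 5738 on the JH III 12 h arrays, against 3943 and 3313 on the DMSO arrays (0.67 ± 0.10, adjusted p = 0.0056). Falls were ND-42 (-0.41 ± 0.08), ND-SGDH (-0.41 ± 0.07), ND-18 (-0.39 ± 0.09), ND-B22 (-0.30 ± 0.07) and ND-B14 (-0.27 ± 0.07). The rises were larger than any of the falls and the 5 falls were lost without either DMSO array. Over all 64 oxidative phosphorylation genes 6 rose and 5 fell, with a median of -0.01.

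**Figure D4:**
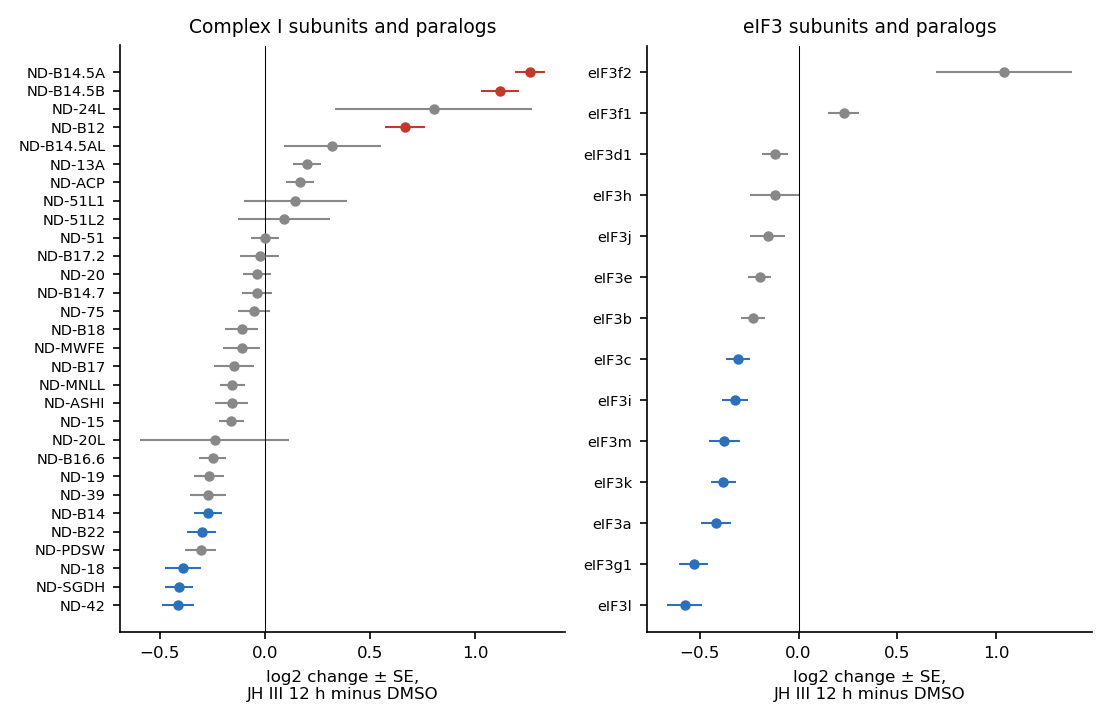
Log2 change with its standard error (JH III 12 h minus DMSO, x axis; 2 arrays a group) for complex I genes (left panel) and eIF3 genes (right panel), paralogs included. Red and blue mark genes higher and lower at an adjusted p under 0.05. In complex I the 3 genes that passed as higher lie at 0.67 to 1.26, and the 5 that passed as lower at -0.41 to -0.27. The dim paralog ND-24L, which did not pass, lies at 0.80 ± 0.47. In eIF3 all but the f paralogs lie below 0.

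No gene of the JH list passed at 12 h. Of 14 tested, 0 rose and 0 fell by limma, 7 had a change above 0, and the median was -0.06. JhI-26, named for its induction by JH, had 696 and 705 on the JH III 12 h arrays, against 573 and 587 on the DMSO arrays (0.26 ± 0.10, adjusted p = 0.161). Its groups did not overlap, but neither did those of 51.7% of probe sets. Kr-h1, the main target of the JH receptor, had 101 and 157 on the JH III 12 h arrays, against 192 and 193 on the DMSO arrays (-0.52 ± 0.27, adjusted p = 0.301). The receptor gene Met had 99.2 and 163 on the JH III 12 h arrays, against 105 and 36.3 on the DMSO arrays, so its groups overlapped (0.77 ± 0.48, adjusted p = 0.393). Its paralog gce gave 0.16 ± 0.18 and, with another probe set, 0.54 (adjusted p = 0.154), and the coactivator gene tai 0.23 ± 0.22. The gene nearest to the threshold was Fkbp39, whose protein binds JH response elements, with 4910 and 4939 on the JH III 12 h arrays and 5672 and 6008 on the DMSO arrays (-0.24 ± 0.06, adjusted p = 0.0614). The amino acid transporter gene JhI-21 gave 0.24 ± 0.15, the hairy gene hry -0.39 ± 0.16, br 0.42 ± 0.25 (its other probe sets -0.28 and -0.44), tgo -0.19 ± 0.10, mnd -0.19 ± 0.18, usp -0.23 ± 0.24, RNaseZ -0.15 ± 0.15 and CG14434 0.03 ± 0.08. Of 5 genes of JH synthesis and turnover tested 1 fell: 1 probe set of Hmgs, an enzyme of the mevalonate pathway that supplies the JH precursor, fell by 0.36 ± 0.07 (adjusted p = 0.0199), against 0.31 for its dimmer probe set (adjusted p = 0.551).

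Of 24 immediate early and stress kinase genes 2 rose and 1 fell by limma, where 3.28% of all genes tested were higher and 2.77% lower. The receptor kinase inhibitor sprouty, sty, had 7561 and 7118 on the JH III 12 h arrays, against 4514 and 3827 on the DMSO arrays (0.82 ± 0.08, adjusted p = 0.00129), and spi, an EGF receptor ligand gene, rose by 0.45 ± 0.08. The JNK phosphatase gene puc, with 582 and 514 on the JH III 12 h arrays and 926 and 822 on the DMSO arrays, fell by 0.65 ± 0.11 (adjusted p = 0.0175). Of 12 Notch genes 2 rose: kuz, the metalloprotease that cleaves Notch (492 and 509 on the JH III 12 h arrays, 250 and 253 on the DMSO arrays; 0.93 ± 0.18), and 1 probe set of the coactivator gene mam (0.76 ± 0.12), whose other probe set gave -0.11. The mam probe set that rose is of a class that can hybridize to related sequences. Of 18 immune genes 1 fell, the NF-kappaB factor gene Rel (-0.65 ± 0.12, adjusted p = 0.0155). Of 10 ecdysone-responsive genes 2 rose, the methionine sulfoxide reductase gene MsrA (0.51 ± 0.07) and the clock repressor gene vri (0.80 ± 0.20). None of 22 insulin and TOR pathway genes and none of 16 apoptosis genes passed by limma, with medians of 0.17 and -0.06 against -0.01 over all genes.

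Folding and degradation genes gave small changes, and their counts stand beside 3.28% higher and 2.77% lower over all genes tested. Of 29 genes of endoplasmic reticulum folding and stress 4 fell and 0 rose by limma, with a median of -0.12. The BiP chaperone gene Hsc70-3 had 3402 and 3606 on the JH III 12 h arrays, against 5198 and 4968 on the DMSO arrays (-0.53 ± 0.07, adjusted p = 0.00415), the disulfide isomerase gene Pdi fell by 0.41 ± 0.06 and the folding sensor gene Uggt fell by 0.42 ± 0.09. The probe set of Hsc70-3 belongs to the same class as that of mam. Of 22 heat shock and cytosolic chaperone genes 2 rose, Hsp26 by 0.32 ± 0.07 and the mitochondrial chaperonin gene Hsp60A by 0.31 ± 0.06. Of 27 proteasome genes 2 rose and 1 fell: Prosbeta5, a catalytic subunit, had 19451 and 20124 on the JH III 12 h arrays, against 12484 and 13188 on the DMSO arrays (0.62 ± 0.06, adjusted p = 0.00243), Prosalpha6 rose by 0.52 ± 0.07 and the regulatory particle gene Rpn7 fell by 0.31 ± 0.06. Of 54 autophagy and lysosome genes 3 rose, Atg10, Vha14-1 (0.30 ± 0.06) and 1 probe set of Atg13 (0.33 ± 0.08; the other gave 0.17).

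Metabolic genes fell in 3 of 23 members of glycolysis and the TCA cycle, with Pgi at -0.44 ± 0.10, Idh at -0.28 ± 0.07 and Eno at -0.27 ± 0.06. Among all genes tested 3.28% were higher and 2.77% lower. Of 28 lipid and sterol genes 2 rose and 1 fell by limma: the sterol-binding gene Npc2a rose by 0.56 ± 0.09 and SREBP, the regulator of fatty acid synthesis, by 0.43 ± 0.10. Of 11 amino acid transporter genes 2 rose, path (0.57 ± 0.12) and CG5535 (0.43 ± 0.11). Of 37 glutathione and UDP transferase genes 3 rose and 2 fell, among them GstE11 (0.58 ± 0.09), GstE6 (-0.63 ± 0.10) and GstD9 (-0.57 ± 0.07). Of 27 cytochrome P450 genes 2 rose, Cyp4e2 (0.42 ± 0.09) and Cyp9f2 with both of its probe sets (0.59 ± 0.15 and 0.77).

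Counts for nuclear and actin genes stand beside 3.28% higher and 2.77% lower over all genes tested, together 6.05% called. The share called was above 6.05% among DNA replication, splicing and nuclear pore genes. It was below 6.05% among mitosis, chromatin and actin genes. These differences in share were not tested. Of 44 DNA replication genes 2 rose and 3 fell by limma: dUTPase, which keeps uracil out of DNA, had 12278 and 12447 on the JH III 12 h arrays, against 7688 and 7714 on the DMSO arrays (0.68 ± 0.06, adjusted p = 0.00118), while the helicase subunit gene Mcm6 fell by 0.60 ± 0.11 and the licensing factor gene dup fell by 0.36 ± 0.08. Of 44 mitosis genes 1 fell, Incenp (-0.34 ± 0.07). Of 40 splicing genes 3 rose and 1 fell, among them SmB, a core protein of spliceosomal RNA particles (0.63 ± 0.08), Hrb27C (0.64 ± 0.12) and HnRNP-K (-0.35 ± 0.07). Of 38 nuclear pore and transport genes 3 rose and 1 fell, with Nup43 at 0.63 ± 0.07, Ref1 at 0.38 ± 0.06 and 1 probe set of Rcc1 at 0.49 ± 0.08 (the other at 0.72, adjusted p = 0.0991). Of 55 chromatin genes 2 fell, the remodelling ATPase gene Iswi (-0.44 ± 0.10) and rept (-0.32 ± 0.06). Of 34 actin and adhesion genes 1 rose, the profilin gene chic (0.32 ± 0.06), and none of 13 matrix genes passed.

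Of 28 hemocyte markers on the array 18 passed the filter on dim values and none changed by limma. Of these 18, 8 had a change above 0, and the median was -0.01. The summed hemocyte signal was 42503 and 40967 on the JH III 12 h arrays, against 40888 and 39922 on the DMSO arrays. SPARC alone gave 21564 and 20091 on the JH III 12 h arrays, against 18257 and 17709 on the DMSO arrays. Its gap is wider than that of the sum, so the sum does not describe the other hemocyte markers. The summed signal of 15 neuronal markers, 3 of them past the filter, was 928 and 675 on the JH III 12 h arrays, against 693 and 610 on the DMSO arrays. The summed signal of 16 germline markers was lower, at 7929 and 8780 on the JH III 12 h arrays, against 9471 and 9818 on the DMSO arrays. These groups did not overlap, and neither did those of 51.7% of single probe sets tested. Among the members tested the gap in signal was widest in zpg (2288 and 2824, against 2942 and 3605) and bgcn (1066 and 1099, against 1700 and 1439). Of the 8 germline markers tested 2 had a change above 0, so the sum does not describe every germline marker. For 13 fat body markers the sum was higher, at 6204 and 6462 on the JH III 12 h arrays, against 5781 and 4979 on the DMSO arrays. The marker Gnmt alone gave 4024 and 3945 on the JH III 12 h arrays, against 2658 and 2578 on the DMSO arrays. Its gap is wider than that of the sum, so the sum does not describe the other fat body markers. None of these sums was tested. Of 6 muscle, 8 germline and 6 follicle markers tested none passed, and of 8 fat body markers 1 rose, Gnmt, a glycine N-methyltransferase gene (0.60 ± 0.06, adjusted p = 0.00158). In RNA of whole cultures, fewer cells of a type and less RNA per cell cannot be told apart.

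The 12 h arrays were also set against the earlier JH III arrays, a test that leaves out the DMSO arrays but shares the 12 h arrays with the calls above. Over all probe sets 16.5% differed between 12 h and 3 h and 14.3% between 12 h and 6 h by limma, and 9.44% differed from both in 1 direction. JH III 6 h replicate 2 held 3151 unreadable values, and for those probe sets the 6 h group is 1 array. Of the 280 probe sets higher than DMSO at 12 h, 142 were also above both earlier times by this test, and of the 216 lower, 44 were also below both. ND-B14.5A lay 1.68 above 3 h and 1.65 above 6 h (adjusted p = 1.41e-05 and 1.58e-05), and against DMSO its values at 3, 6 and 12 h were -0.42, -0.39 and 1.26. AgmNAT gave -0.69, -0.73 and 2.11 against DMSO at 3, 6 and 12 h, EMC4 -0.56, -0.30 and 0.99, and ND-B12 -1.15, -1.15 and 0.67. Each of these 4 genes was above both earlier times. By contrast lncRNA:CR42862 gave 2.22, 2.02 and 1.06 at 3, 6 and 12 h and was below both earlier times at 12 h (adjusted p = 0.000493 and 0.00139). For Pvf2 (0.78, 1.22 and 1.19) and sxc (1.51, 1.01 and 1.05) the difference between 12 h and 6 h did not pass (adjusted p = 0.904 and 0.872). CG11523 gave -0.17, -0.61 and -1.44 and was below both earlier times at 12 h. JhI-26 gave 0.65, 0.92 and 0.26, and at 12 h lay below 3 h (limma adjusted p = 0.0303). It also lay 0.66 below 6 h, where its value comes from 1 array.

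The genomic span of a gene, exons and introns together in the RefSeq annotation, had a median of 1705 bp for the 225 genes higher than DMSO, 2168 bp for the 190 lower and 2639 bp over the 6846 genes with a span, so both sets of called genes were shorter than all genes. Called genes were also brighter: their median signal was 1794 for the higher and 1484 for the lower, against 432 over all genes. The 39 genes higher in every fit that left out 1 of the 4 arrays, by their brightest probe set, had a median of 1276 bp. Genes were ordered by span and cut into 10 bins. In bin 1, of 177 to 956 bp, 7.30% were higher and 1.90% lower than DMSO, and in bin 2, of 957 to 1312 bp, 6.12% were higher and 2.48% lower. In bin 10, the longest, 3.07% were higher and 0.730% lower. The median change was 0.09 in bin 1, -0.07 in bins 5 and 6 and 0.08 in bin 10, so both ends of the range lay above the middle. Genes higher than DMSO and also above both earlier times had a median span of 1196 bp (114 genes), and the other higher genes 3869 bp (111 genes). This split also carries the earlier arrays' own relation to span: the median change over all genes against DMSO was -0.08 and -0.14 in bins 1 and 2 at 3 h, and 0.28 and 0.25 in bins 9 and 10. The median of 12 h minus 3 h was 0.14 in bin 1 and -0.21 in bin 10. ND-B14.5A, ND-B14.5B and EMC4 span 907, 896 and 1069 bp, whereas Pvf2 and sxc span 15100 and 22268 bp. Genes are not independent replicates, so these shares are a description, and the part of labelling in them was not tested.

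**Figure D5:**
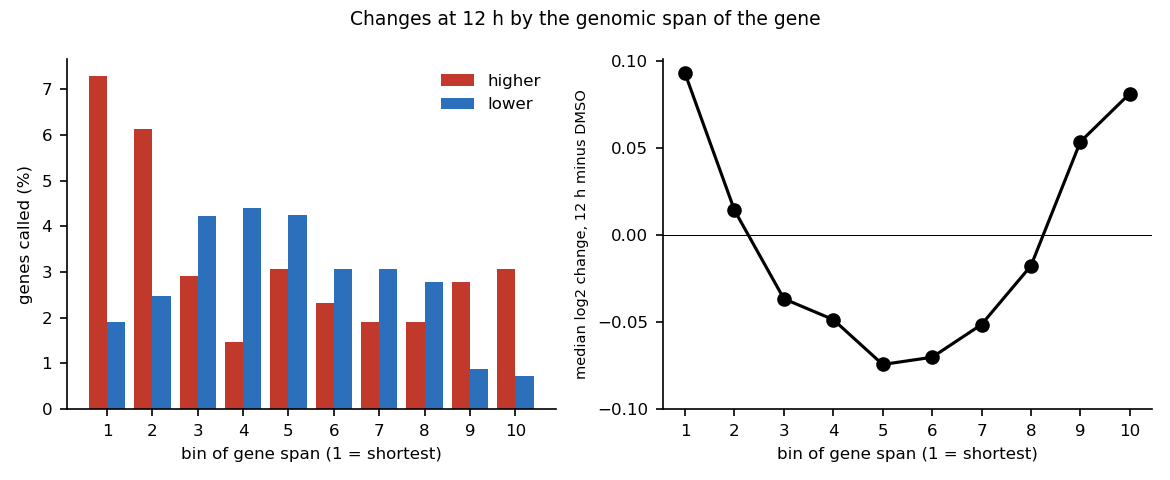
Share of genes higher (red) and lower (blue) at 12 h of JH III than in DMSO at an adjusted p under 0.05 (left panel, %), and median log2 change (right panel), in 10 bins of genes by genomic span from shortest to longest. Bins 1 and 2 hold 7.30% and 6.12% higher genes, above the 3.28% over all genes.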

How the data were processed

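Total RNA of L57 cells was labelled with biotin and hybridized to 8 arrays, 2 for each of JH III 12 h, 6 h and 3 h and DMSO. The authors deposited 1 linear intensity for each probe set, made with MAS5 per the submitters' processing notes. The 7 intact arrays share a trimmed mean of 500.1 in the values. JH III 6 h replicate 2 held 3151 unreadable values in 2 stretches, treated here as missing. The 44 control probe sets were left out, then values were taken as log2(signal + 25) and 5586 probe sets under the 40th percentile of mean log2 value (signal 61.5) were dropped. The model had a mean for each of the 4 groups over all 8 arrays, was run with limma 3.58.1 under R 4.3.3 using trended variances, and was tested on simulated data. P-values are two-sided, adjusted by Benjamini-Hochberg over 8380 probe sets, with 0.05 as the threshold. The number of arrays limits the precision, and errors are standard errors of the fit.

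Gene symbols came from the array annotation, and 50 of the 12443 probe sets with 1 symbol had no match in the RefSeq table and keep the annotation's name. Of the rest, 327 probe sets had several symbols and 1196 none. Genes named are the 15 largest rises and 15 largest falls, up to 15 genes called in every fit without 1 DMSO or JH III 12 h array, all tested members of the JH list, and up to 3 members of each other list. The members, lists and rules were chosen with earlier results of these data known. Arrays with the same replicate number did not deviate together (correlations of -0.047 to 0.066), so the numbers do not pair them. No set test was made. Promoter and protein sequences were not used here.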

Additional observations from a re-analysis of the deposited data

Results flagged for a closer look

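Groups of 2 arrays are too small for an outlier test. Genes described above whose change at 12 h differed from that at both 3 h and 6 h by limma are given here with the difference between JH III 12 h and 3 h on the log2 scale. Above 3 h and 6 h were AgmNAT (2.81), ND-B12 (1.82), ND-B14.5B (1.73), ND-B14.5A (1.68), EMC4 (1.54), Nup43 (1.28), Hsp26 (1.22), Rrp4 (1.19), SmB (1.18), PMP34 (1.14), mRpL46 (1.08) and CG6610 (1.07). Smaller differences in the same direction were found for mRpL36 (0.99), RpL23 (0.95), e(y)2 (0.91), Prosbeta5 (0.89), dUTPase (0.84), GstE11 (0.82), RpLP2 (0.66), mRpL11 (0.65), Gnmt (0.59), Ref1 (0.50), CG5535 (0.48), Prosalpha6 (0.46), Rcc1 (0.45), Hsp60A (0.42), RpL10Ab (0.40), strat (0.39) and MsrA (0.23), and for eIF3f1 (0.52), which did not pass against DMSO. Below both earlier times were Gnpat (-1.75), Atxn7 (-1.53), CG11523 (-1.27), lncRNA:CR42862 (-1.16), Phae1 (-1.11), GstE6 (-0.93), puc (-0.71), Arc1 (-0.67), Iswi (-0.61), Uggt (-0.52), dup (-0.47), Hsc70-3 (-0.47), eIF3a (-0.37) and GlnRS (-0.29), and also hry (-0.89), tgo (-0.50) and JhI-26 (-0.39), which did not pass against DMSO.

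Of the control probe sets, which no comparison of genes uses, the hybridization controls lay 0.53 higher on the JH III 12 h arrays than on the DMSO arrays, and both JH III 12 h arrays were above every other array.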

How the results depend on the processing

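Against 496 probe sets called, 280 higher and 216 lower, median centring gave 889 (181 higher, 708 lower) and the fit without a variance trend 37 (26 and 11). The DMSO and JH III 12 h arrays alone gave 301 with 107 lower, and probe sets readable on all 8 arrays gave 284 (177 and 107), fewer being tested there. With no filter on dim probe sets 118 were lower. Leaving out 1 array gave 82 to 502 in all, 69 to 281 higher and 8 to 221 lower. Without either JH III 3 h array the total was 303, although these arrays enter the comparison only through the estimate of spread. With the replicate number as a block, which does not pair the arrays, 345 were called, 125 of them lower. Of 187 calls of at least 1.5-fold, 37 remained in number without the trend, 119 among readable probe sets, and 75 to 202 without 1 array. Of 36 calls of at least 2-fold the counts were 13 with an added constant of 100, 17 with the filter at the 60th percentile, 14 without the trend, 20 with the 4 arrays alone, and 21 to 43 without 1 array. List members called numbered 104, and 179 with centring, 64 with no filter, 4 without the trend, 61 with the 4 arrays alone, 59 among readable probe sets and 18 to 99 without 1 array. The cause of these shifts was not tested. Without the trend 79 of the named calls no longer passed. Among the genes chosen by the naming rules, the count that differed from both earlier times was 45 (eIF3a and eIF3f1 come on top), and 30 to 49 over the alternatives run. With 2 arrays a group, the number of arrays limits the precision.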
